A study of Homo sapiens with 6 samples.

Results

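The genes described here are the secreted and membrane-bound ligands of axon guidance and their receptors. They comprise the semaphorins with the plexins and neuropilins, the ephrins with the Eph receptors, the Slits with the Robo receptors, and the netrins with DCC, neogenin and the UNC5 receptors. They were chosen by gene symbol alone, as protein-coding rows of the deposited expression table, which gave 62 members among 21429 genes. Of these, 32 encode ligands and 30 encode receptors. The remaining 7 symbols of these families in the annotation (DCC, EPHA8, EPHA10, EPHB6, SEMA5B, SLIT1 and UNC5A) were not analysed here.

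RNA was sequenced from U251 cells, an established human glioma line, carrying a stable transgene for amyloid precursor protein with the mutations K670N and M671L. All 6 cultures shared this transgene, and in all of them doxycycline at 1 µg/mL was given 24 h after electroporation to switch it on. In the control group (siNC) 3 cultures received a control siRNA and in the knockdown group (siRPL13) 3 cultures received an siRNA targeting RPL13, a ribosomal protein gene of the large subunit, each with 2.5 µL of siRNA at 20 µM. RNA was taken 72 h after electroporation. The labels call the libraries biological replicates without saying how the cultures were separated, so the p-values measure the spread between these libraries, and the model is a tumour line with an introduced gene and 1 siRNA label per group. The values are in log2 units after a regularized-log (rlog) transformation, scaled for library size and with low genes pulled towards their mean. The depth per library is therefore unknown and differences of low genes are understated.

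Guidance cues steer the growth cone, the motile tip of a growing axon, by attraction or repulsion. Semaphorins act through plexins, with neuropilins as co-receptors for the secreted class 3 members. Ephrins are tethered to the membrane, A ephrins by a lipid anchor and B ephrins by a transmembrane segment, and bind Eph receptor tyrosine kinases on neighbouring cells. Slits repel cells that carry Robo receptors, while netrins attract through DCC and neogenin and repel through UNC5 receptors. The same molecules guide migrating cells and vessels, and in glioma cells they are known for their part in migration and invasion.

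The targeted transcript, RPL13, stood at 14.05, 14.16 and 14.18 in replicates 1 to 3 of siNC and at 13.03 and 13.12 in replicates 1 and 2 of siRPL13. RPL13 fell by 1.06 ± 0.06 (SE, log2; adjusted p 8.13e-06, limma) in that pair. The library labelled replicate 3 of siRPL13 held it at 14.09, inside the siNC range, and over all 6 libraries the difference was -0.72 ± 0.24 (adjusted p 0.589). This library also stood apart for STMN2, a growth cone gene listed as a neuronal marker, at 7.71 against 4.61 to 4.66 in the other 5 libraries. Differences of genes that rose or fell are therefore given for all 6 libraries and for the 5 libraries without it. For some other genes only 1 of these comparisons is given. The words "rose" and "fell" below are used only where limma gave an adjusted p under 0.05 over the 5. Of 12 listed astrocyte and glioma markers 9 passed the filter, with VIM at 16.08, CD44 at 15.78, GFAP at 15.02 and SOX2 at 13.44 on average, while OLIG2 at 1.66 and ALDH1L1 at 0.79 were below it. In bulk RNA, fewer cells of a type and less RNA per cell cannot be told apart. The summed level of the astrocyte and glioma list lay at 17.65 to 17.87 (log2) in siNC and at 17.50 to 17.59 in siRPL13, without overlap. Of all genes tested 13.8% likewise did not overlap over 6 libraries. Values were summed before taking the log2, so VIM and CD44, the most abundant, weigh most. The part of this sum in the differences below was not tested. The neuronal list summed to 10.91 to 11.10 and 10.92 to 11.24, with RBFOX3 at 0.21, and SOX10, CD68 and ITGAM averaged 0.02, 0.37 and 0.20. The endothelial list summed to 11.80 to 11.95 in siNC and 11.84 to 12.09 in siRPL13, with TEK at 0.54, and the fibroblast list to 9.32 to 9.79 and 9.02 to 9.81.

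Guidance genes changed in both directions in replicates 1 and 2 of siRPL13, by small amounts. Of the 55 members with a mean rlog of at least 3, 8 rose and 14 fell in the 5-library comparison. Among all 15327 genes tested 8.42% rose and 10.7% fell, 19.1% in all, against 40.0% of the members tested. The median size of the difference was 0.20 (log2) over the members and 0.10 over all genes, and the median signed differences were -0.05 and 0.00. No member changed by 1 or more on the log2 scale. The falls ranged from 0.20 to 0.60 and the rises from 0.23 to 0.34. Every one of the 7 semaphorins and 3 plexins called had fallen, whereas the 3 EPHA receptors called had all risen.

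With all 6 libraries no member and no gene passed (0% in either direction by limma, smallest adjusted p 0.589). At an unadjusted p under 0.05 there were 6 members, or 10.9% of those tested, against 8.32% of all genes. Over 5 libraries the same unadjusted threshold was met by 32 members (58.2%), against 33.4% of all genes. Leaving out a further siRPL13 library leaves 1 in that arm, which is then assumed to vary like siNC. Most of the 22 members called no longer passed in these fits. The difference of SEMA3B was -0.51 without siRPL13 replicate 1 and -0.48 without siRPL13 replicate 2. Quantile scaling over 5 libraries gave 10 members higher and 9 lower in place of 8 and 14. All genes shifted the same way, to 1483 higher and 1409 lower in place of 1291 and 1642.

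**Figure D1:**
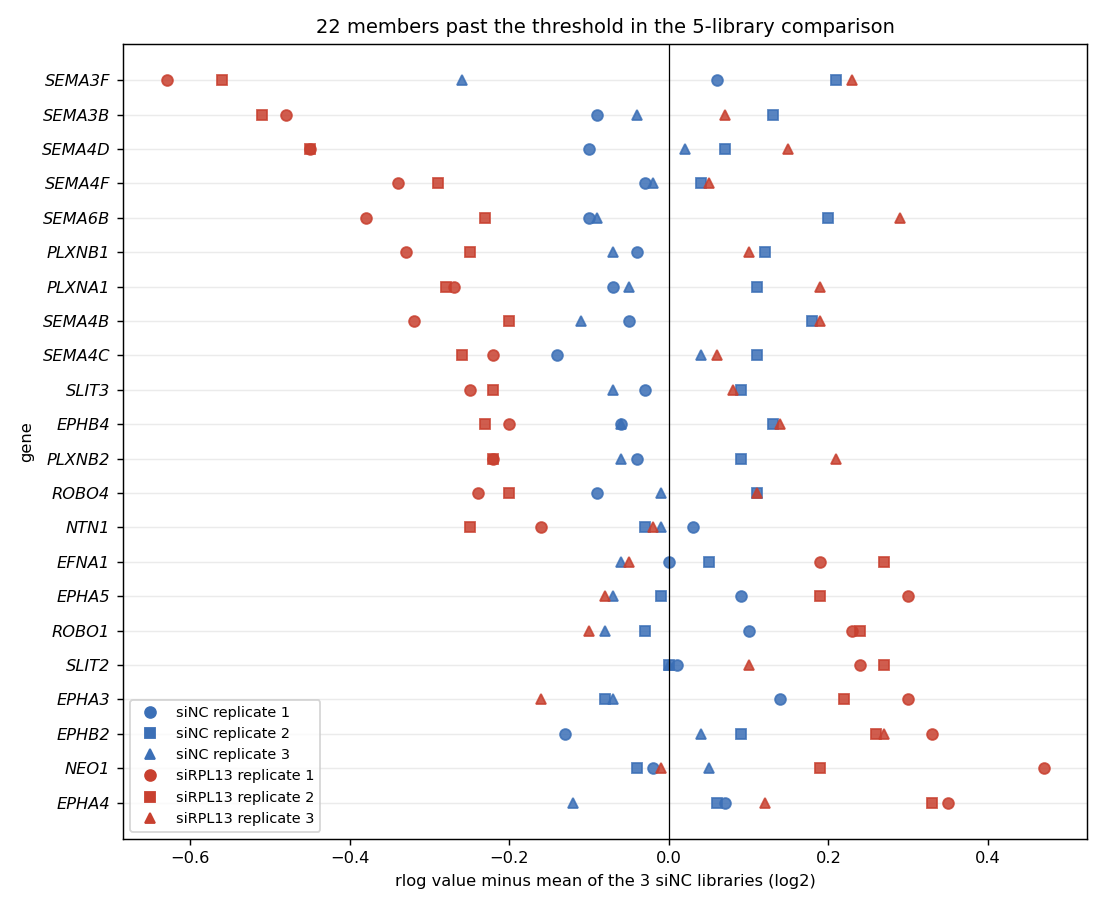
Horizontal axis, deviation of the rlog from its siNC mean (log2), for the 22 members past the threshold in the 5-library comparison, 1 gene per line, blue for siNC, red for siRPL13, with symbols by replicate. SEMA3F and SEMA3B lie farthest to the left in replicates 1 and 2 of siRPL13, and the library labelled replicate 3 of siRPL13 lies among or to the right of the siNC libraries for all 14 genes that fell.

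In control cells the members covered a wide range of levels. To compare genes, the mean siNC rlog was taken per exonic length by subtracting the log2 of the exonic length in kb. On this scale EPHA2, a receptor of the A ephrins, was the highest of the 62 at 11.93, followed by the secreted semaphorin SEMA3C at 10.86, the co-receptor NRP2 at 10.82, EPHA3 at 10.65, the transmembrane SEMA6B at 10.30 and the ligand EFNB2 at 10.17. SEMA3C and NRP2 differed by less than the SD of either over the siNC libraries (both 0.05). The top of each remaining family was PLXNB2 at 9.99, EPHB4 at 9.91, NTN1 at 9.33, SLIT2 at 8.93, UNC5C at 8.72, ROBO1 at 8.18, EFNA4 at 7.97 and NEO1 at 5.00. At the other end 7 members fell under the filter of a mean rlog of 3 and were not tested: SEMA3E, SEMA4A, SEMA5A, SEMA6D, EPHA1, EPHA7 and EPHB1. Among these the rlog lay between 0.52 for EPHA7 and 2.64 for SEMA5A over all libraries, and on either side of the filter stood SEMA5A at 2.58 and NTN3 at 3.11.

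**Figure D2:**
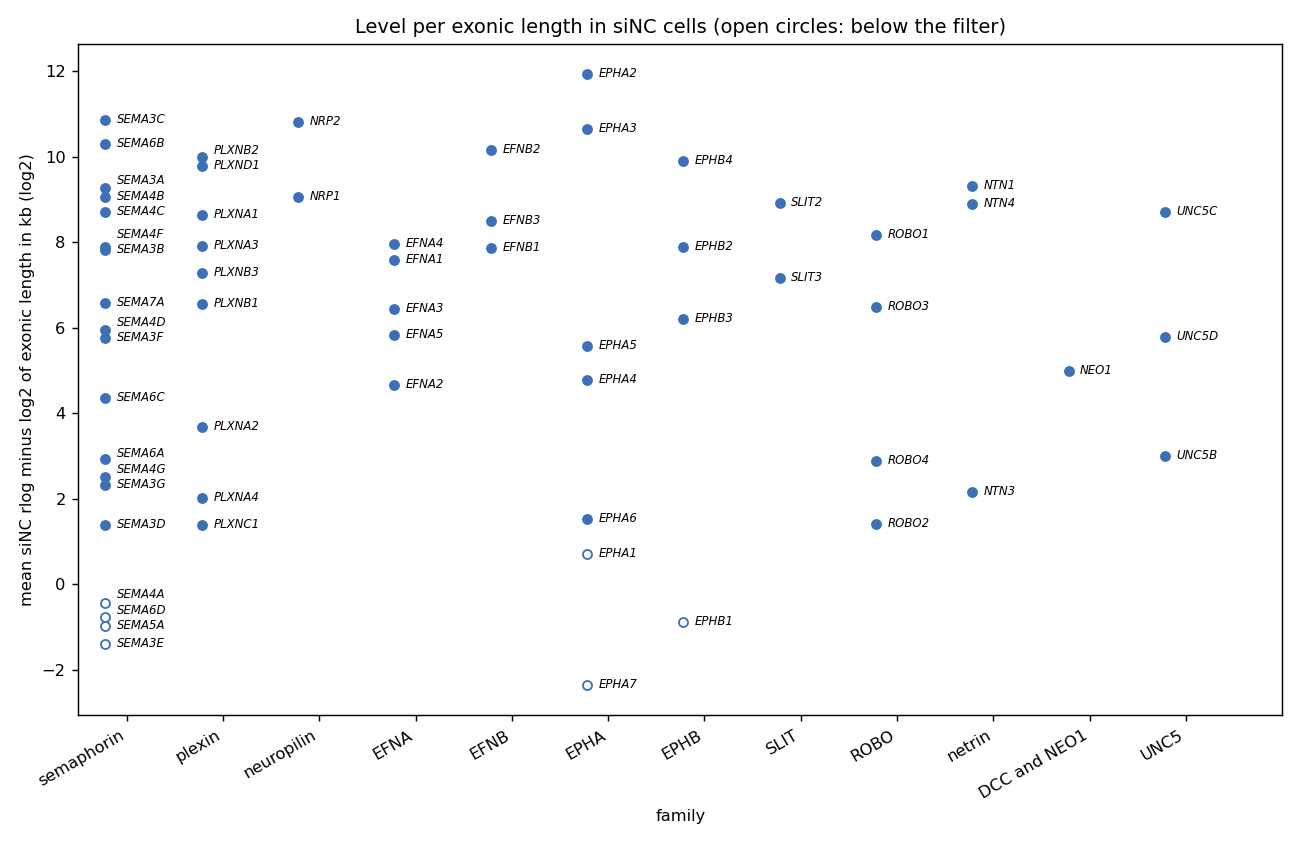
Vertical axis, mean siNC rlog minus the log2 of the exonic length in kb (log2), horizontal axis the family, with 1 labelled point per member and open circles for members under the filter. EPHA2 at 11.93 lies highest, and the EPHA family spans the widest range, down to EPHA7 at -2.35.

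Semaphorins were the family with the largest falls. Of 15 tested 7 fell and 0 rose (46.7% fell, against 10.7% of all genes), and their median difference was -0.21 over 5 libraries and -0.11 over 6. SEMA3F (ENSG00000001617, GRCh38 chromosome 3, 50155045 to 50189075, plus strand), a secreted ligand that binds NRP2 and repels axons and vessels, stood at 7.85, 8.0 and 7.53 in siNC, at 7.16 and 7.23 in replicates 1 and 2 of siRPL13 and at 8.02 in the library labelled replicate 3 of siRPL13. The low pair lay under every siNC library and the remaining siRPL13 library lay above them all. SEMA3F fell by 0.60 ± 0.12 (SE, log2; adjusted p 0.00704), to 66.1% of siNC on the rlog scale, and with all 6 libraries its difference was -0.32 ± 0.22 (adjusted p 0.654).

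SEMA3B (ENSG00000012171, plus strand, 50267558 to 50277546), a related secreted ligand, begins 78.5 kb beyond SEMA3F on the same chromosome. It stood at 9.46, 9.68 and 9.51 in siNC, at 9.07 and 9.04 in replicates 1 and 2 of siRPL13 and at 9.62 in the library labelled replicate 3 of siRPL13. SEMA3B fell by 0.49 ± 0.07 (SE, adjusted p 0.00212), in the siRPL13 pair on which every such call rests. The difference over 6 libraries was -0.31 ± 0.15 (adjusted p 0.590). SEMA3B was the member with the smallest adjusted p. The stretches before the RefSeq starts of these neighbours are shown as those of the largest falls among called members whose window holds no exon of the basic GENCODE 29 transcripts, chosen after the values were seen, from chr3:50154808-50155057 and chr3:50272869-50273118 (GRCh38.p14, 250 bases each, plus strand). The last 13 bases before SEMA3F lie in a first exon of the full GENCODE annotation, and the SEMA3B window lies within the span of the gene, outside its exons. Capitals mark the GC box GGGCGG, the motif bound by SP1-family factors, on either strand, overlapping matches included.
SEMA3F: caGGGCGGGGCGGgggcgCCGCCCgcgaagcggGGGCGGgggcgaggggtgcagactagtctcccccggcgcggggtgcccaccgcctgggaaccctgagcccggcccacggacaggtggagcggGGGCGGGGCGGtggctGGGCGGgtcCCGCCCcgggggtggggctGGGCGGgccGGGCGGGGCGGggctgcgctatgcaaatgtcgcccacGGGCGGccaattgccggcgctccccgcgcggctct
SEMA3B: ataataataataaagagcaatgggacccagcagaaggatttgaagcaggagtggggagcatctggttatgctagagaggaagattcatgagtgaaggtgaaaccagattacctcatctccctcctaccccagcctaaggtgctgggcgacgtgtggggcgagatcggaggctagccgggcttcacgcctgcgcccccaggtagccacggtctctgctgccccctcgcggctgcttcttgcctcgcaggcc
The letters of the motif occurred 12 times before SEMA3F and 0 times before SEMA3B, and the GC content was 82.0% and 57.6%. The motif was present in the same window of 42.6% of all 35116 RefSeq promoters and of 73.6% of the 53 members matched. It occurred in 9 of 12 matched members that fell and 6 of 8 that rose, so its share was 75% in each.

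The transmembrane class 4 semaphorins, a part of the 15 semaphorins counted above, fell in 4 of 5 members tested (80.0%, against 10.7% of all genes). Class 3 fell in 2 of 6 (33.3%) and classes 5 to 7 in 1 of 4 (25.0%). The planned families did not split the semaphorins by class. SEMA4D, a ligand of PLXNB1 known from immune and glial cells, stood at 9.01, 9.18 and 9.13 in siNC and at 8.66 in both replicates 1 and 2 of siRPL13, with 9.26 in the library labelled replicate 3 of siRPL13. Its fall was 0.45 ± 0.07 (SE; adjusted p 0.00252), against -0.25 ± 0.15 over 6 libraries. SEMA4F stood at 10.48, 10.55 and 10.49 in siNC, 10.17 and 10.22 in replicates 1 and 2 of siRPL13 and 10.56 in the remaining one. SEMA4F fell by 0.31 ± 0.05 (adjusted p 0.00379), against -0.19 ± 0.10 over 6 libraries (adjusted p 0.596). SEMA4B and SEMA4C fell by 0.26 ± 0.08 and 0.24 ± 0.07, with adjusted p-values of 0.0423 and 0.0405. Over 6 libraries their differences were -0.11 ± 0.13 and -0.14 ± 0.10 (adjusted p 0.779 and 0.665), and with quantile scaling over 5 neither passed (adjusted p 0.0513 and 0.0566), which leaves SEMA4D and SEMA4F called in the class. For SEMA4G, the 5th of the class, the difference over 5 libraries was -0.09 ± 0.06 (adjusted p 0.291). The gene overlaps MRPL43 on the opposite strand, whose mean rlog of 11.14 was far above its own 4.62. Since no source states that the counting kept strand, reads of overlapping genes cannot be told apart. Of the 22 called members 7 are overlapped by another gene of the table: SEMA3F, SEMA4B, EPHA4, EPHA5, EPHB4, SLIT3 and NTN1.

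Among the other semaphorins SEMA6B, a transmembrane ligand of A plexins, stood at 12.19, 12.49 and 12.20 in siNC, at 11.91 and 12.06 in replicates 1 and 2 of siRPL13 and at 12.58 in the library labelled replicate 3 of siRPL13. SEMA6B fell by 0.31 ± 0.09 (adjusted p 0.0312), and over 6 libraries its difference was -0.11 ± 0.16. With quantile scaling over 5 SEMA6B did not pass (adjusted p 0.0565). SEMA6C was the 1 member tested that lay below every siNC library in all 3 siRPL13 libraries, at 6.07, 6.25 and 6.10 against 6.36, 6.49 and 6.26. That difference was -0.23 ± 0.08 over 6 libraries (unadjusted p 0.0221, adjusted p 0.589) and did not pass over 5. Neither of the abundant secreted members passed. SEMA3C stood between 13.09 and 13.32 in the 6 libraries, with a difference of 0.04 ± 0.05 over 5 libraries (adjusted p 0.597). SEMA3A, the collapsin that acts through NRP1, stood at 12.32 in each siNC library and at 12.39, 12.47 and 12.37 in siRPL13. Its difference over 5 libraries was 0.11 ± 0.05 (adjusted p 0.138). SEMA4G, SEMA6C and SEMA3A are named after their values were seen.

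**Figure D3:**
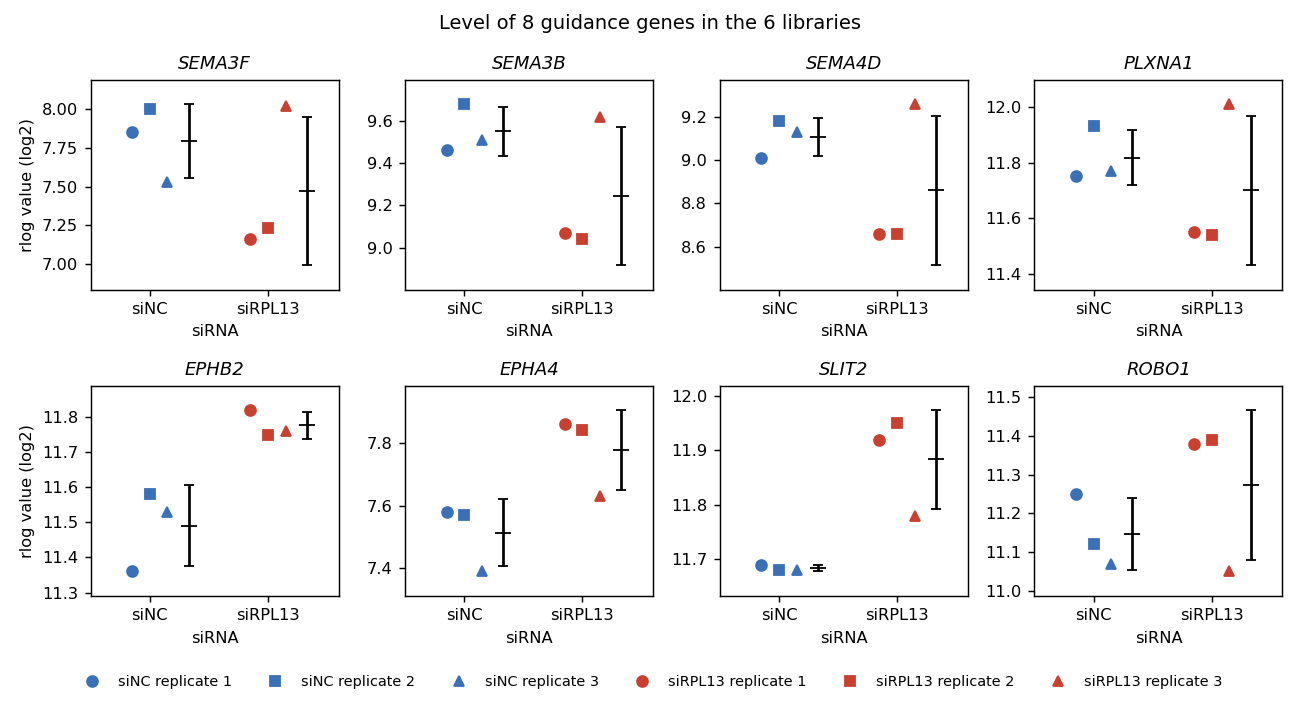
Vertical axes, rlog (log2 units) of 8 members (axes do not start at 0), 1 point per library, blue for siNC, red for siRPL13, with symbols by replicate, with the mean of 3 libraries ± SD beside them. SEMA3F, SEMA3B, SEMA4D and PLXNA1 are low in replicates 1 and 2 of siRPL13 and not in the library labelled replicate 3 of siRPL13, while EPHB2 lies at 11.75 to 11.82 in all 3 siRPL13 libraries.

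Plexins, the signalling receptors of semaphorins, fell in 3 of 9 members (33.3%, against 10.7% of all genes) and rose in 0 (8.42% of all genes), with a median difference of -0.16 over 5 libraries and -0.08 over 6. PLXNA1, a receptor shared by neuropilin-bound and class 6 semaphorins, stood at 11.75, 11.93 and 11.77 in siNC, at 11.55 and 11.54 in replicates 1 and 2 of siRPL13 and at 12.01 in the library labelled replicate 3 of siRPL13, the highest of the 6. PLXNA1 fell by 0.27 ± 0.06 (SE; adjusted p 0.0106). PLXNB1, the receptor of SEMA4D, stood at 9.38, 9.54 and 9.35 in siNC and at 9.09, 9.17 and 9.52 in siRPL13. PLXNB1 fell by 0.29 ± 0.07 (adjusted p 0.0195). Its ligand SEMA4D was also called, but every call over 5 libraries rests on the same siRPL13 pair. PLXNB2, which also binds class 4 semaphorins, fell by 0.22 ± 0.06 (adjusted p 0.0190) from 12.67 ± 0.08 (SD, n = 3). Under quantile scaling over 5 libraries PLXNB2 did not pass (adjusted p 0.0599). The 6-library differences of these 3 plexins were -0.12 ± 0.12, -0.16 ± 0.11 and -0.08 ± 0.11.

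PLXND1, the receptor of SEMA3E on vessels, had a 5-library difference of -0.16 ± 0.06 (adjusted p 0.0815) and did not pass. PLXNA4, a partner of neuropilins for SEMA3A, had higher values in siRPL13, at 6.45, 6.14 and 6.17 against 6.13, 5.99 and 5.94 in siNC. These groups did not overlap over 6 libraries, but the difference of 0.23 ± 0.10 did not pass (unadjusted p 0.0435, adjusted p 0.589). NRP2, the neuropilin that serves SEMA3F, stood between 14.13 and 14.22 in all 6 libraries, with a difference of -0.03 ± 0.05 over 5. NRP1, the co-receptor of SEMA3A, stood at 12.49, 12.51 and 12.48 in siNC and at 12.58, 12.66 and 12.53 in siRPL13. Its difference over 5 libraries was 0.13 ± 0.05 (adjusted p 0.0932). PLXND1, PLXNA4 and NRP1 are named after their values were seen.

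Eph receptors rose in 4 of 8 members tested (50%, against 8.42% of all genes) and fell in 1 (12.5%, against 10.7%), with a median difference of 0.21 over 5 libraries and 0.13 over 6. EPHB2 (ENSG00000133216, chromosome 1, 22710839 to 22921500, plus strand), a receptor of B ephrins known for its part in glioma cell migration, stood at 11.36, 11.58 and 11.53 in siNC and at 11.82, 11.75 and 11.76 in siRPL13. All 3 siRPL13 libraries lay above all siNC libraries, that labelled replicate 3 included. EPHB2 rose by 0.30 ± 0.07 (adjusted p 0.0119), and its 6-library difference of 0.29 ± 0.07 had the smallest unadjusted p of the members, 0.00283, with an adjusted p of 0.589. EPHB4, the receptor of EFNB2, went the other way and stood at 11.97, 12.16 and 11.97 in siNC and at 11.83, 11.80 and 12.17 in siRPL13. EPHB4 fell by 0.22 ± 0.06 (adjusted p 0.0355), against -0.10 ± 0.10 over 6 libraries (adjusted p 0.754). After quantile scaling over 5 libraries EPHB4 did not pass (adjusted p 0.0652). It overlaps SLC12A9 on the opposite strand, at a mean rlog of 11.29 against its own 11.98.

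EPHA4, a receptor with broad binding to A and B ephrins, stood at 7.58, 7.57 and 7.39 in siNC and at 7.86, 7.84 and 7.63 in siRPL13. The groups did not overlap, and EPHA4 rose by 0.34 ± 0.08 (adjusted p 0.0177), with 0.26 ± 0.09 over 6 libraries (unadjusted p 0.0202). EPHA3, a receptor known from glioma stem-like cells, stood at 13.53, 13.31 and 13.32 in siNC, at 13.69 and 13.61 in replicates 1 and 2 of siRPL13 and at 13.23 in the library labelled replicate 3 of siRPL13, the lowest of the 6. EPHA3 rose by 0.26 ± 0.07 (adjusted p 0.0236), against 0.12 ± 0.12 over 6 libraries. EPHA5 rose by 0.24 ± 0.07 (adjusted p 0.0419), with 8.79 in the library labelled replicate 3 of siRPL13 against 8.80 to 8.96 in siNC and a 6-library difference of 0.13 ± 0.10 (adjusted p 0.682). It overlaps RPL6P10, a ribosomal protein pseudogene, at a mean rlog of 8.01. EPHA2, the member with the highest level per length, stood at 13.82, 14.02 and 13.93 in siNC and at 14.12, 14.06 and 14.17 in siRPL13. These groups did not overlap, but its difference did not pass, at 0.17 ± 0.06 over 5 libraries (adjusted p 0.0799) and 0.20 ± 0.07 over 6 (unadjusted p 0.0209, adjusted p 0.589).

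Ephrins, the ligands of these receptors, changed in 1 of 8 members, or 12.5%, against 19.1% of all genes. EFNA1, the main ligand of EPHA2, stood at 8.54, 8.59 and 8.48 in siNC, at 8.73 and 8.81 in replicates 1 and 2 of siRPL13 and at 8.49 in the library labelled replicate 3 of siRPL13. EFNA1 rose by 0.23 ± 0.07 (adjusted p 0.0391), against 0.14 ± 0.09 over 6 libraries (adjusted p 0.644). It lies in a cluster on chromosome 1 with EFNA4 and EFNA3, all on the plus strand, 39.9 kb after EFNA3, which in turn lies 9.3 kb after EFNA4. Neither neighbour passed: EFNA4 had a 5-library difference of -0.23 ± 0.08 (adjusted p 0.0526) and EFNA3 of -0.09 ± 0.10 (adjusted p 0.583). EFNB2, the ligand of EPHB4 and the ephrin with the highest level per length, stood between 12.40 and 12.68 in the 6 libraries. Its difference over 5 libraries was 0.04 ± 0.08 (adjusted p 0.785). EFNB1 had a 5-library difference of -0.21 ± 0.07 (adjusted p 0.0692). EFNA3, EFNA4 and EFNB1 are named after their values were seen.

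The 2 Slits measured moved in opposite directions. SLIT2 (ENSG00000145147, chromosome 4, 20253260 to 20620561, plus strand), the repellent ligand of ROBO1, stood at 11.69, 11.68 and 11.68 in siNC and at 11.92, 11.95 and 11.78 in siRPL13. All siRPL13 libraries lay above siNC, with the library labelled replicate 3 nearest to it. SLIT2 rose by 0.25 ± 0.05 (adjusted p 0.00517), and over 6 libraries its difference was 0.20 ± 0.06 (unadjusted p 0.0117, adjusted p 0.589). SLIT3 stood at 10.42, 10.54 and 10.38 in siNC and at 10.20, 10.23 and 10.53 in siRPL13. SLIT3 fell by 0.24 ± 0.06 (adjusted p 0.0231), with a 6-library difference of -0.13 ± 0.10. The stretches before the RefSeq starts of SLIT2 (chr4:20251655-20251904) and EPHB2 (chr1:22710588-22710837), both on the plus strand of GRCh38.p14, are shown as those of the largest rises under the same condition. Capitals again mark GGGCGG on either strand.
SLIT2: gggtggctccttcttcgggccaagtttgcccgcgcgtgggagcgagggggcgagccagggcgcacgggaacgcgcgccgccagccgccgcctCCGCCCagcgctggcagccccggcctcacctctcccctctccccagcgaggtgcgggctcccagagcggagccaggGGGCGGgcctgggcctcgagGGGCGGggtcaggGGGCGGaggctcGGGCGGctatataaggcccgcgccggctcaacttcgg
EPHB2: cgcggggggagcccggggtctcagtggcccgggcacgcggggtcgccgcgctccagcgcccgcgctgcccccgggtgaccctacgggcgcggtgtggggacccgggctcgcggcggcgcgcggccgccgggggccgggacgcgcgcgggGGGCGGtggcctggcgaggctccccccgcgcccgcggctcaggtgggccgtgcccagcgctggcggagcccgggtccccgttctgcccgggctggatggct
There were 5 matches before SLIT2 and 1 before EPHB2, with a GC content of 77.2% and 84.8%.

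Of the 4 Robo receptors 1 rose and 1 fell (25.0% each, against 8.42% and 10.7% of all genes). ROBO1, the main Slit receptor, stood at 11.25, 11.12 and 11.07 in siNC, at 11.38 and 11.39 in replicates 1 and 2 of siRPL13 and at 11.05 in the library labelled replicate 3 of siRPL13, the lowest of the 6. ROBO1 rose by 0.24 ± 0.06 (adjusted p 0.0216), against 0.12 ± 0.10 over 6 libraries. SLIT2 and ROBO1 were thus both called over 5, where all calls rest on the same siRPL13 pair. ROBO4, a Robo known from endothelium, stood at 5.02, 5.22 and 5.10 in siNC and at 4.87, 4.91 and 5.22 in siRPL13. ROBO4 fell by 0.22 ± 0.07 (adjusted p 0.0479), the adjusted p nearest to the threshold among the 22, and over 6 libraries its difference was -0.11 ± 0.10 (adjusted p 0.714). ROBO3, which lies 2.2 kb from ROBO4 on the opposite strand, had a 5-library difference of -0.05 ± 0.07 (adjusted p 0.680). It was named after its values were seen.

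Among netrins and their receptors, NTN1, the classical axon attractant, stood at 11.93, 11.87 and 11.89 in siNC and at 11.74, 11.65 and 11.88 in siRPL13. NTN1 fell by 0.20 ± 0.05 (adjusted p 0.0207), with -0.14 ± 0.07 over 6 libraries. NEO1, neogenin, a receptor of netrins and of repulsive guidance molecules, stood at 7.86, 7.84 and 7.93 in siNC and at 8.35, 8.07 and 7.87 in siRPL13. The siRPL13 libraries spread over a wider range than siNC, and siRPL13 replicate 1 was the highest. NEO1 rose by 0.33 ± 0.09 (adjusted p 0.0275), against 0.22 ± 0.12 over 6 libraries (adjusted p 0.60). Set alone against siNC, replicate 1 of siRPL13 gave a difference of 0.47 and replicate 2 one of 0.19. Of 3 UNC5 receptors none passed (0 of 3 by limma, and 0 at an unadjusted p under 0.05 over 6 libraries). UNC5C stood between 12.02 and 12.26 in the 6 libraries, with a difference of -0.03 ± 0.07 (adjusted p 0.804).

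**Figure D4:**
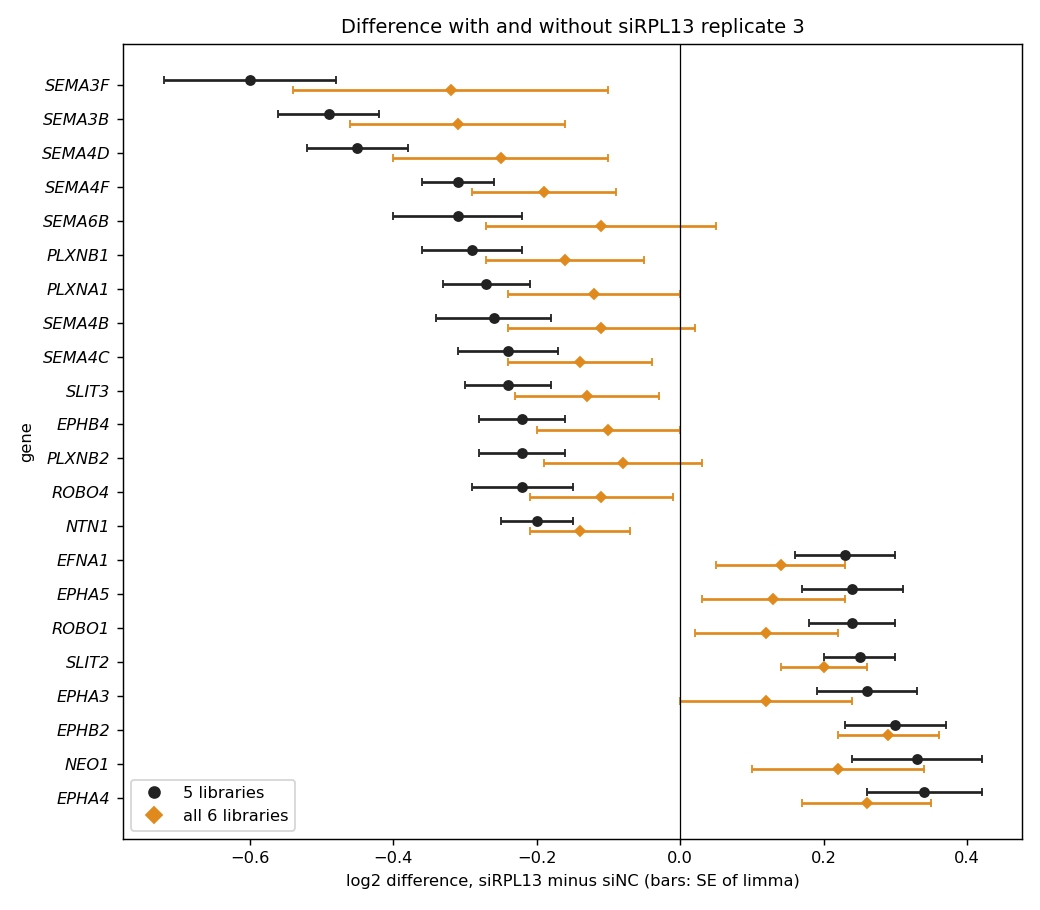
Horizontal axis, log2 difference of siRPL13 minus siNC with the SE of limma as bars, for the 22 members called in the 5-library comparison, with black circles for 5 libraries and orange diamonds for all 6. The diamonds include the 5 libraries of the circles, and EPHB2 is at 0.30 and 0.29 while PLXNB2 is at -0.22 and -0.08.

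Groups did not overlap over 6 libraries for 9 of the 55 members tested (16.4%), 8 higher and 1 lower in siRPL13. Of all genes tested 6.92% did not overlap and were higher, 6.9% were lower and 13.8% were either. The 8 were SEMA3A, PLXNA4, NRP1, EPHA2, EPHA4, EPHA6, EPHB2 and SLIT2, and the 1 lower was SEMA6C. Over 5 libraries 36 members (65.5%) did not overlap, against 51.3% of all genes, 13 of them higher (24.7% of all genes) and 23 lower (26.6% of all genes). The library labelled replicate 3 of siRPL13 lay below the siNC range for none of the 14 members that fell (0), inside it for 6 and above it for 8. Among the 8 that rose it lay above the siNC range for SLIT2, EPHB2 and EPHA4, inside it for 2 and below it for EPHA3, EPHA5 and ROBO1. In 13 of the 14 that fell the highest siNC library was siNC replicate 2. The 14 were chosen for low values in replicates 1 and 2 of siRPL13. The positions of siRPL13 replicate 3 and siNC replicate 2 were not counted over all genes, so they cannot be called particular to the members. With the siNC mean as 0, the median of the 14 was -0.06, 0.11 and -0.05 in replicates 1 to 3 of siNC, -0.30 and -0.25 in replicates 1 and 2 of siRPL13 and 0.12 in the library labelled replicate 3 of siRPL13.

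Base composition moved with these differences, and its part in them was not tested beyond the correction given at the end of the paragraph. Across all genes, the rank correlation between transcript GC content and a library's deviation from the siNC mean was -0.31, 0.35 and -0.04 in replicates 1 to 3 of siNC, -0.15 and -0.23 in replicates 1 and 2 of siRPL13 and 0.38 in the library labelled replicate 3 of siRPL13. Members that fell had a GC content of 52.4% to 67.7% (median 61.4%) and members that rose one of 38.8% to 58.5% (median 45.9%). The members tested had a median GC content of 58.2%, against 48.1% for all genes tested. Over the 55 members tested the rank correlation of GC content with the 5-library difference was -0.53, and over 14933 genes with a GC value it was -0.20. The members share the same 5 libraries, so these correlations are descriptions. After each library's smooth dependence on GC was removed, 13 of the 14 that fell and 7 of the 8 that rose still passed by limma. EPHA2 also passed (0.20, adjusted p 0.0154), while EPHA5 and ROBO4 no longer did (adjusted p 0.0626 and 0.0637). In that fit 8 members were higher and 13 lower, against 1485 higher and 1746 lower among 14933 genes. The correlation over the members was then -0.48.

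**Figure D5:**
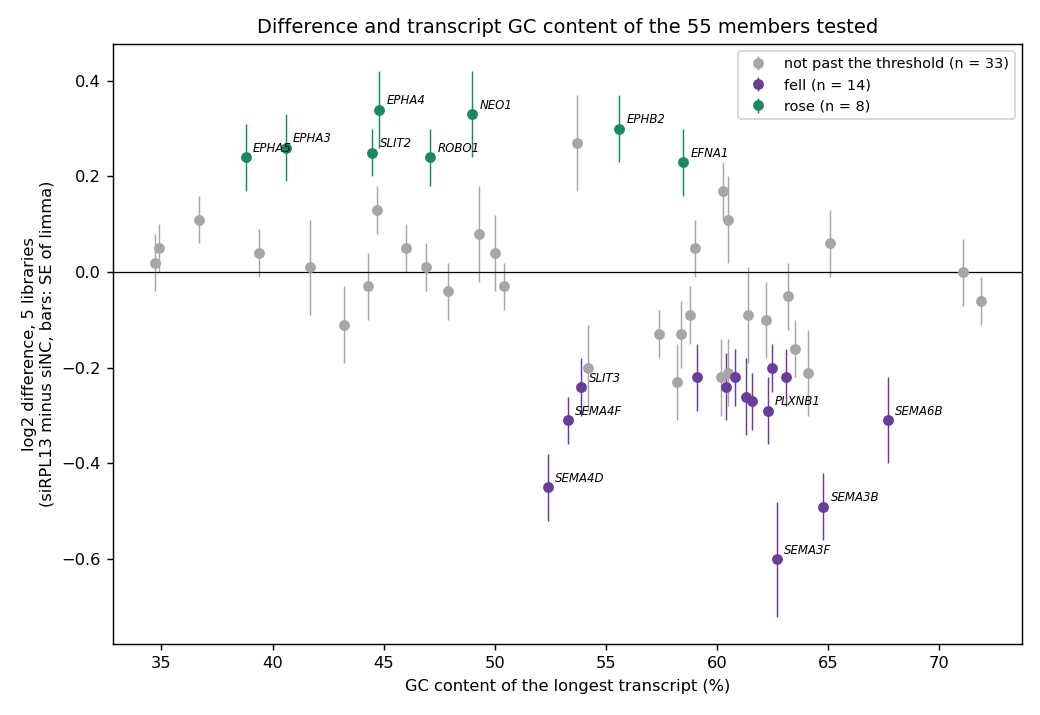
Horizontal axis, GC content of the longest annotated transcript (%), vertical axis the 5-library log2 difference of siRPL13 minus siNC with the SE of limma as bars, for the 55 members tested, coloured by call. The 14 members that fell lie at 52.4% GC or more, and 6 of the 8 that rose lie at 49.0% or less.

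Genes that act with or below these receptors were counted in a separate list of 98 cytoplasmic effectors, adhesion partners and modulators, of which 86 were tested. In the 5-library comparison 13 rose and 12 fell, 29.1% against 19.1% of all genes. With all 6 libraries 0 passed, and 8 of the 86 had an unadjusted p under 0.05 (limma), against 8.32% of all genes. The largest fall was that of L1CAM, an adhesion molecule that associates with neuropilin-1, at 0.60 ± 0.07 (adjusted p 0.000641), from 11.74, 11.78 and 11.55 in siNC to 11.11 and 11.06 in replicates 1 and 2 of siRPL13, with 11.78 in the library labelled replicate 3 of siRPL13. SDC3, a heparan sulfate proteoglycan, fell by 0.41 ± 0.06, SRC, a kinase downstream of several guidance receptors, by 0.32 ± 0.07, and RGMA, a ligand of neogenin, by 0.30 ± 0.09. The largest rise was that of CNTN1, an immunoglobulin-domain adhesion molecule, by 0.71 ± 0.09 (adjusted p 0.000857), from 9.51, 9.18 and 9.29 to 10.08 and 9.99, with 9.09 in the library labelled replicate 3 of siRPL13. MAGI2, a scaffold, rose by 0.44 ± 0.07, PAK3, a kinase effector of small GTPases, by 0.39 ± 0.08 and NRCAM, an L1-family adhesion molecule, by 0.37 ± 0.06. L1CAM and NRCAM, of the same family, moved in opposite directions. Over 6 libraries the differences were -0.37 ± 0.17 for L1CAM, -0.25 ± 0.12 for SDC3, -0.16 ± 0.13 for SRC and -0.16 ± 0.13 for RGMA. Those of the effectors that rose were 0.40 ± 0.23 for CNTN1, 0.24 ± 0.15 for MAGI2, 0.34 ± 0.08 for PAK3 and 0.28 ± 0.08 for NRCAM.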

How the data were processed

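RNA of 6 cultures, 3 siNC and 3 siRPL13, was sequenced from 1.5 µg of total RNA with a NEBNext Ultra kit, per the labels' protocols. The authors deposited a table in log2 units, made by a regularized-log transformation (rlog). Tools listed in the submitters' processing notes are Trimmomatic 0.33, TopHat, HTSeq 0.6.1p1 and DESeq2, with the build GRCh38.p7 and no settings. Since these are not counts, depth is unknown and no count model was used. Symbols came from a table of gene names (20499 of 21429 identifiers) and GENCODE 29 (20608), which gave positions, exonic lengths (union of basic transcripts) and transcript GC content; 821 were in neither. Upstream sequences came from RefSeq (GRCh38.p14).

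Genes averaging 3 or more in rlog were fitted together with limma 3.58.1 in R 4.3.3 (lmFit, eBayes with a trend, two-sided, Benjamini-Hochberg over 15327 genes, threshold 0.05), and the fit was tested on simulated data. Members and lists were chosen with earlier results of these data known, as was the 5-library comparison. Genes named by rule were RPL13, all members called in either comparison, the member with the highest mean rlog in each family, and of the list of effectors the 4 largest changes called in each direction. Alternatives were no filter, a minimum of 5, quantile scaling, median centring, other variance models, library weights, a block for the replicate number, omission of each library in turn and, added after the data were seen, a GC correction (loess, span 0.5).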

Additional observations from a re-analysis of the deposited data

How the results depend on the processing

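The count of members called over 6 libraries was 0 under every alternative except library weights (29, with 5309 of all genes) and leaving out the library labelled replicate 3 of siRPL13 (22, with 2933 of all genes). The weights were 0.163 for that library and 7.19 for siRPL13 replicate 2, so the weighted fit nearly leaves replicate 3 out and rests mostly on replicate 2 in that arm. Over the leave-one-out fits the count of members ranged from 0 to 22, and that of all genes from 0 to 2933. Over 5 libraries the count of members was 22, between 18 and 29 under the alternatives that kept all 5, and from 1 to 27 when a further library was left out. All genes called ranged from 243 to 3748 in those fits. The lowest values came without siRPL13 replicate 1 (1 member, 243 genes), followed by those without siRPL13 replicate 2 (6 members, 943 genes); both fits leave 1 siRPL13 library, assumed to vary like siNC. Quantile scaling gave 10 members higher and 9 lower in place of 8 and 14, and 1483 of all genes higher and 1409 lower in place of 1291 and 1642. The labels do not say whether the replicate numbers pair the libraries. Correlations of same-numbered deviations were 0.08, -0.43 and -0.33. They cannot decide it, because the deviations within each group sum to 0 and so depend on each other. With the replicate number as a block 0 members were called over 6 libraries and 22 over 5, of which 20 were among the main 22. Differences near 0 changed sign in some fits. Over 6 libraries NRP2 became 0.03 (quantile scaling) and 0.0041 (GC correction, chosen after the data were seen), SEMA3C 0.0016 (quantile scaling) and 0.05 (library weights), and UNC5C 0.01 (library weights). The leave-one-out ranges over 6 libraries were -0.04 to 0.01 for NRP2, -0.07 to 0.04 for SEMA3C, -0.12 to 0.01 for UNC5C, -0.04 to 0.10 for EFNB2 and -0.31 to 0.03 for SEMA6B. Over 5 libraries NRP2 and UNC5C became 0.01 with quantile scaling, UNC5C 0.02 with library weights and EFNB2 -0.01 with the replicate block, and the leave-one-out ranges were -0.09 to 0.04 for UNC5C and -0.01 to 0.13 for EFNB2. The cause was not tested, and depth is unknown.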
